A study of Mus musculus with 6 samples.

Results

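The genes described here encode subunits of the AMPA and NMDA receptors, the ionotropic glutamate receptors of most excitatory synapses. They were 10 listed genes, Gria1 to Gria4, Grin1, Grin2a to Grin2d and Grin3a, taken where the platform annotation of an array row named that gene and no other. Of these, 9 had such a row (4 AMPA and 5 NMDA subunits) among 21789 rows that named a single gene, each with 1 row, and Grin1 was not analysed here. Whole mouse brains, taken from embryos on embryonic day 16.5, gave the RNA for 6 arrays, each of 1 labelled biological replicate. The compared groups were 3 Tdp2Δ1-3 brains, carrying an allele of the gene for a tyrosyl-DNA phosphodiesterase that repairs topoisomerase II breaks, and 3 wild-type (Tdp2+/+) brains. No treatment was given to either group. No label restricts the mutation to a cell type, and the labels state no zygosity of the Tdp2Δ1-3 brains and no sex or strain background. The series text speaks of independent pairs of wild-type and Tdp2Δ1-3 brains, without saying whether equal replicate numbers mark a pair or a litter.

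Values were log2 values from which each gene's median over the 6 arrays had been subtracted, so a value is a deviation from that gene's own midpoint. A value of 0 is therefore no absence of RNA, levels of different genes cannot be set against each other, and defining markers of brain could not be checked for presence. Where the groups do not overlap, this centring also makes the lowest value of the higher group and the highest value of the lower group mirror images around 0. With 3 arrays per genotype, precision is limited by their number. Array medians lay between -0.0108 and 0.014. Tdp2 itself had values of -1.05, -0.90 and -0.94 in Tdp2Δ1-3 brains, against 0.90, 1.10 and 1.34 in wild-type brains, so that every Tdp2Δ1-3 array was the lower one, as labelled; the probes behind this row were not placed against the mutated part.

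AMPA receptors carry the fast excitatory current and are assembled from the GluA subunits that Gria1 to Gria4 encode. Gria2 has a special place, because its transcript is edited at a single codon and the edited subunit makes the channel nearly impermeable to calcium. NMDA receptors need glutamate, a co-agonist such as glycine or D-serine, and relief of a magnesium block. They combine the obligatory GluN1 subunit with GluN2 or GluN3 subunits. In rodent brain Grin2b and Grin2d are the GluN2 genes of embryonic life, whereas Grin2a and Grin2c become prominent after birth, Grin2c mainly in the cerebellum. Grin3a encodes a glycine-binding subunit that lowers calcium permeability and is most abundant in the developing brain.

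The promoter windows below are shown because they allow members that fell (Gria4, Grin2d) to be set beside members that did not pass the test (Gria2, Grin2c). They come from RefSeq, build GRCm38.p6, which held a window for 5 of the 10 listed genes, and each runs from 250 bases before to 50 bases after an annotated transcript start, 5′ to 3′ on the gene's strand, here the minus strand throughout. The Gria4 window is chr9:4796185-4796484, the Grin2d window chr7:45866632-45866931, the Gria2 window chr3:80802786-80803085 and the Grin2c window chr11:115267194-115267493. Capitals mark matches on either strand to the motifs searched, which were the GC box GGGCGG of Sp-type factors, the NRF1 half-site TGCGCA, the CRE half-site TGACG, the TATA box TATAAA and GGACAG, the right part of the RE1 element bound by the repressor REST.
Gria4: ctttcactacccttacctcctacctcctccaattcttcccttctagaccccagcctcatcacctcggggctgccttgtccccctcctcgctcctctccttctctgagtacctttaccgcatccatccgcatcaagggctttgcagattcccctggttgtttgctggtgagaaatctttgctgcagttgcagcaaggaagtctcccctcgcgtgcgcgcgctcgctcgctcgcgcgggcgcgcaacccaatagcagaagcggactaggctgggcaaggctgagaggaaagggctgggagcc
Grin2d: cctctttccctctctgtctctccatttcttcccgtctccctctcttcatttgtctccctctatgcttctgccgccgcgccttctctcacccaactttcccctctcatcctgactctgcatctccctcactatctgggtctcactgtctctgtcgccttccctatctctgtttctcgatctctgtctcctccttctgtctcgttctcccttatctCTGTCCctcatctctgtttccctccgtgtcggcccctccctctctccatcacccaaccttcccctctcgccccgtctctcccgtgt
Gria2: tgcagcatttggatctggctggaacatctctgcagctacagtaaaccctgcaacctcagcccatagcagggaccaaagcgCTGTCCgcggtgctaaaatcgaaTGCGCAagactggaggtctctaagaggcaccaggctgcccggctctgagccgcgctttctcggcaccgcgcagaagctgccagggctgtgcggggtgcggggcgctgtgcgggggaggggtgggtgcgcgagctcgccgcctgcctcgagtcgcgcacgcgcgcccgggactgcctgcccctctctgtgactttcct
Grin2c: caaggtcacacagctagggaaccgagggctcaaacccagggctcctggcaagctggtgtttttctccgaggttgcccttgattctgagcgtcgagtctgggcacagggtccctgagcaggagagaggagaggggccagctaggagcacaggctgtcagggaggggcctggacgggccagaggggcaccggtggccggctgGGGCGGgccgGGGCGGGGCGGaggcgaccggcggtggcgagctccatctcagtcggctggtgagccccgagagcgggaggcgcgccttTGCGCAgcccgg

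The Gria4 window held none of the 5 motifs, and the Grin2d window held 1, the RE1 part on the other strand, starting at position -36 from the transcript start. The Gria2 window held the letters of the same RE1 part at position -170 and an NRF1 half-site at position -147. The left part of the RE1 element was not searched, so these windows were not compared for the whole element. The Grin2c window held 3 GC boxes, starting at positions -50, -40 and -35, of which the last 2 overlap, and an NRF1 half-site at position 39 of the transcript. Among all 32851 windows of that length, 35.7% held the GC box, 7.76% the NRF1 half-site, 20.8% the CRE half-site, 13.6% the TATA box and 22.2% the RE1 part. GC content was 59.7% for Gria4, 56.0% for Grin2d, 65.7% for Gria2 and 70.0% for Grin2c, against a median of 52.7% over all windows. A match describes the letters only and marks no bound site.

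The comparison asked which receptor subunit transcripts differ between Tdp2Δ1-3 and wild-type embryonic brain. Of the 9 subunit genes, 6 fell in Tdp2Δ1-3 brains, none rose and 3 did not pass, at a limma adjusted p under 0.05 over all rows. Over all 23410 rows tested, 4.13% were called lower and 2.34% higher. At an unadjusted p under 0.05, 7 of the 9 were lower and 0 higher, against 11.8% (2770 rows) lower and 2345 rows higher over the whole table. The median log2 difference, Tdp2Δ1-3 minus wild type, was -0.35 over the 9 genes and 0.01 over all rows. By receptor, 4 of 5 NMDA genes fell (Grin3a, Grin2d, Grin2b and Grin2a) and 2 of 4 AMPA genes (Gria1 and Gria4). In 7 of the 9 genes every Tdp2Δ1-3 value lay below every wild-type value, which held for 12.6% of all rows. In whole-brain RNA, fewer cells that express a gene and less of its RNA per cell cannot be told apart.

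The calls depended on which array was left out. Without Tdp2Δ1-3 replicate 2 none of the 9 genes passed in limma (6 were lower and 0 higher at an unadjusted p under 0.05, against 9.67% and 6.22% of all rows), and without wild-type replicate 2 only Gria1 and Grin3a did. Without Tdp2Δ1-3 replicate 3 or wild-type replicate 1, 4 genes passed, namely Gria1, Grin2b, Grin2d and Grin3a. Without Tdp2Δ1-3 replicate 1, 5 passed, and without wild-type replicate 3 the same 6 genes passed as with all arrays. The share of all rows called lower moved too, and was 7.0%, 0.483% and 1.70% without Tdp2Δ1-3 replicates 1, 2 and 3, and 1.95%, 0.927% and 3.15% without wild-type replicates 1, 2 and 3.

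**Figure D1:**
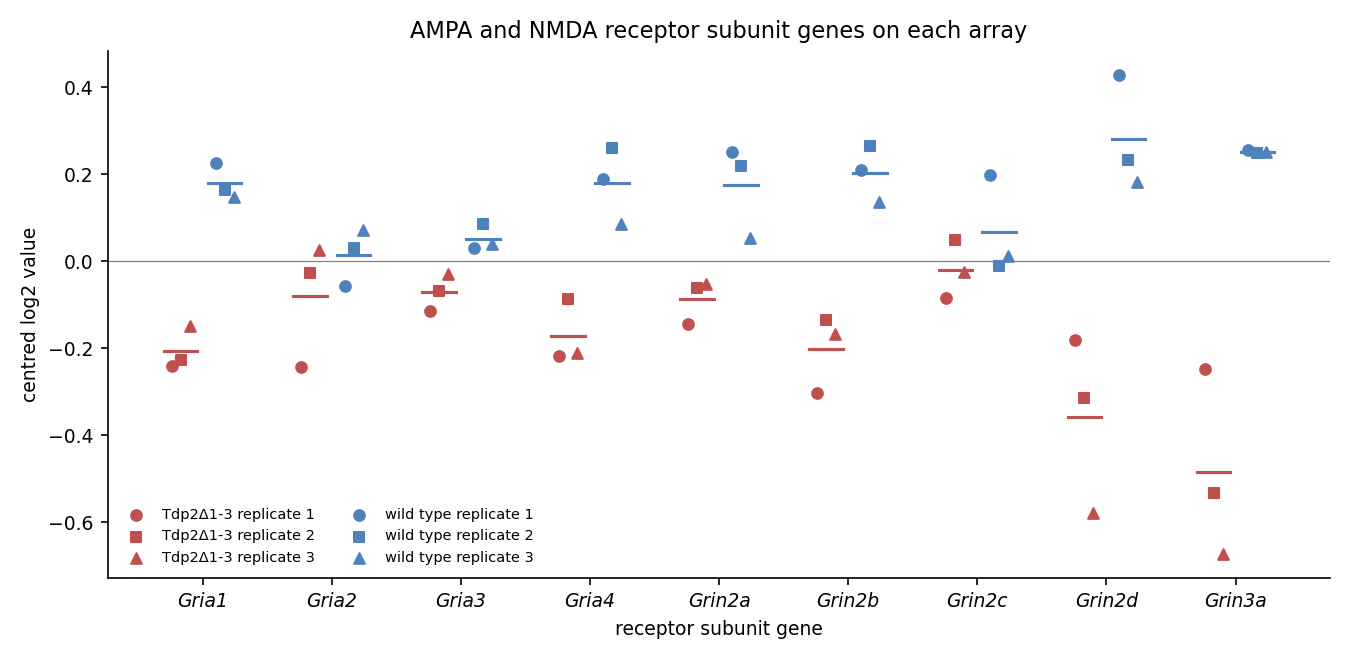
Centred log2 value (vertical axis) of the 9 measured receptor subunit genes (horizontal axis) on each array, Tdp2Δ1-3 in red at the left of each gene and wild type in blue at its right, with marker shape for the replicate number and a bar for the mean of 3. The groups overlap in Gria2 and Grin2c and are apart in the other 7 genes, most widely in Grin3a and Grin2d.

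Among the NMDA genes, Grin3a had the lowest difference of the 9. Its values were -0.25, -0.53 and -0.67 in Tdp2Δ1-3 brains, against 0.25, 0.25 and 0.25 in wild-type brains. The 3 wild-type arrays lay within a narrow band (SD 0.0035), while the Tdp2Δ1-3 arrays were spread (SD 0.22), with replicate 1 nearest to the wild types and replicate 3 the lowest. Grin3a fell by 0.74 ± 0.10 (SE, n = 3 brains of each genotype), which is 1.67-fold (limma adjusted p = 0.00874), and 38 rows of the table had a lower difference, which makes it rank 39 of 23410. After cyclic loess normalisation, which here acted on centred values, the difference of Grin3a was -0.33 (limma adjusted p = 0.00739).

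Grin2d, a GluN2 gene of the embryonic brain, had values of -0.18, -0.32 and -0.58 in Tdp2Δ1-3 brains, against 0.43, 0.23 and 0.18 in wild-type brains. Both groups were spread for this gene, with Tdp2Δ1-3 replicate 3 the lowest and wild-type replicate 1 the highest, and they did not overlap. Grin2d fell by 0.64 ± 0.11 (SE), 1.56-fold (limma adjusted p = 0.0154). Grin3a and Grin2d were the 2 subunit genes that also reached the 1.5-fold limit named in the series text, a mark that 0.453% of all rows reached in the lower direction. Without Tdp2Δ1-3 replicate 2 neither passed. Without wild-type replicate 2 Grin2d did not pass, without Tdp2Δ1-3 replicate 3 its difference was -0.53 and without wild-type replicate 1 it was -0.57, both short of 1.5-fold.

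Grin2b encodes the GluN2 subunit of most NMDA receptors in the embryonic forebrain. Its values were -0.30, -0.14 and -0.17 in Tdp2Δ1-3 brains, against 0.21, 0.26 and 0.14 in wild-type brains. Tdp2Δ1-3 replicate 1 was the lowest array here, unlike for Grin3a and Grin2d, where replicate 3 was. Grin2b fell by 0.41 ± 0.06 (SE), 1.32-fold (limma adjusted p = 0.0112), with adjusted p = 0.0541 without Tdp2Δ1-3 replicate 2 and 0.0565 without wild-type replicate 2.

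Grin2a, the GluN2 gene that becomes prominent after birth, had values of -0.14, -0.06 and -0.05 in Tdp2Δ1-3 brains, against 0.25, 0.22 and 0.05 in wild-type brains. Wild-type replicate 3 was the lowest of the wild types, and the groups did not overlap. Grin2a fell by 0.26 ± 0.06 (SE), 1.198-fold, close to the threshold (limma adjusted p = 0.0476). Of 12 other fits it passed in 6, and it lost its call in 5 of the 6 fits that left out 1 array, with wild-type replicate 3 the exception.

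Grin2c, mainly a cerebellar gene of later life, did not pass. Its values were -0.09, 0.05 and -0.03 in Tdp2Δ1-3 brains, against 0.20, -0.01 and 0.01 in wild-type brains, and the groups overlapped. The difference was -0.09, with a 95% interval of -0.24 to 0.07 (limma adjusted p = 0.525). With array weights, which gave wild-type replicate 1 the smallest weight, it was 0.0018. Grin3b, the other GluN3 gene and outside the 10 listed, had a difference of 0.05 ± 0.05 (SE) that did not pass (limma adjusted p = 0.629).

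Among the AMPA genes, Gria1 had the smallest limma p of the 9 subunit genes. Its values were -0.24, -0.23 and -0.15 in Tdp2Δ1-3 brains, against 0.23, 0.16 and 0.15 in wild-type brains, so that both groups were tight and stood clear of each other. Gria1 fell by 0.39 ± 0.05 (SE), 1.31-fold (limma adjusted p = 0.00705). It passed in 11 of 12 other fits, the exception being the fit without Tdp2Δ1-3 replicate 2 (adjusted p = 0.0533).

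Gria4 encodes an AMPA subunit that is prominent in early brain development and in some interneurons. Its values were -0.22, -0.09 and -0.21 in Tdp2Δ1-3 brains, against 0.19, 0.26 and 0.09 in wild-type brains. Replicate 2 was the highest array of both genotypes. Gria4 fell by 0.35 ± 0.06 (SE), 1.28-fold (limma adjusted p = 0.0176). It passed in 8 of 12 other fits and not without Tdp2Δ1-3 replicate 2 or 3 or wild-type replicate 1 or 2.

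Gria2 and Gria3 did not pass. Gria2, the subunit gene that sets calcium permeability, had values of -0.24, -0.03 and 0.03 in Tdp2Δ1-3 brains, against -0.06, 0.03 and 0.07 in wild-type brains. Only Tdp2Δ1-3 replicate 1 stood below all wild types. The difference of Gria2 was -0.10 (95% interval -0.27 to 0.08, limma adjusted p = 0.531), and without Tdp2Δ1-3 replicate 1 it was -0.02. Gria3, an X-linked AMPA subunit gene, had values of -0.12, -0.07 and -0.03 in Tdp2Δ1-3 brains, against 0.03, 0.09 and 0.04 in wild-type brains. Its groups did not overlap, but the difference was small at -0.12 (95% interval -0.22 to -0.02, limma adjusted p = 0.150), and it passed only with array weights (adjusted p = 0.0230).

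**Figure D2:**
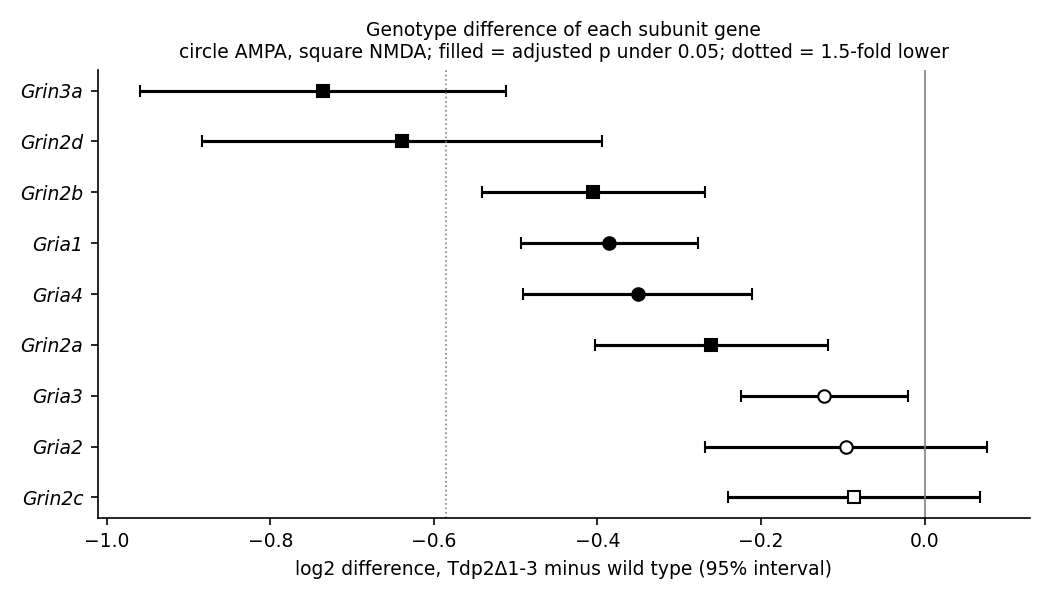
Log2 difference, Tdp2Δ1-3 minus wild type, of each subunit gene (horizontal axis) with limma's 95% interval, ordered by size, with circles for AMPA and squares for NMDA genes. Filled symbols passed at an adjusted p under 0.05; Grin3a at -0.74 and Grin2d at -0.64 lie beyond the dotted line of a 1.5-fold lower value, and the open symbols are Gria3, Gria2 and Grin2c.

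The order of the differences ran from Grin3a and Grin2d through Grin2b, Gria1, Gria4 and Grin2a to Gria3, Gria2 and Grin2c. Neighbours in that order had 95% intervals that overlapped. After cyclic loess Grin3a, at -0.33, came after Grin2d at -0.61, Grin2b at -0.42, Gria1 at -0.40 and Gria4 at -0.37. Whether subunits of 1 receptor differed from each other was tested for 4 pairs, as the value of one gene minus the other on the same array, with a two-sided exact permutation test in which 3 against 3 arrays cannot give a p below 0.1. Gria1 minus Gria2 averaged -0.12 ± 0.11 in Tdp2Δ1-3 brains and 0.16 ± 0.11 in wild-type brains (SD, n = 3 each), a difference of -0.29 with no overlap (exact p = 0.1, 0.2 adjusted over the 4 pairs). Grin2a minus Grin2b averaged 0.12 ± 0.04 in Tdp2Δ1-3 brains and -0.03 ± 0.06 in wild-type brains, a difference of 0.14 with no overlap (exact p = 0.1, adjusted 0.2).

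In the deposited values Grin2a relative to Grin2b was higher on each of the 3 Tdp2Δ1-3 arrays than on each wild-type array, although both genes were lower. After cyclic loess this pair differed by 0.12 (exact permutation p = 0.2), a p at which the groups are no longer fully apart. Gria4 minus Gria2 differed by -0.25 between the genotypes, with overlapping groups (exact p = 0.2, adjusted 0.267). Grin2d minus Grin2b differed by -0.23, also with overlap (exact p = 0.3). After cyclic loess Gria4 minus Gria2 differed by -0.28 (exact permutation p = 0.1). With 3 arrays per genotype no pair could reach an exact p under 0.05.

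**Figure D3:**
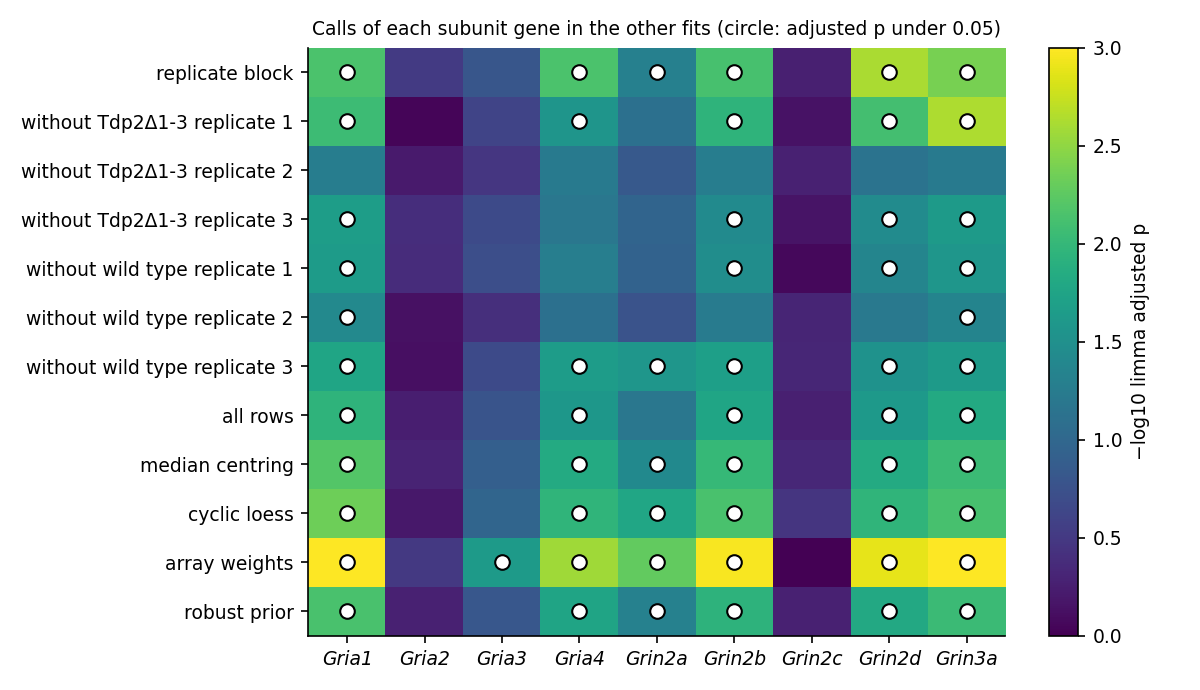
Limma adjusted p of each subunit gene (columns) in 12 other fits (rows), as −log10 in colour, with a white circle where it was under 0.05. The row without Tdp2Δ1-3 replicate 2 holds no circle, the row without wild-type replicate 2 holds circles for Gria1 and Grin3a only, and Gria2 and Grin2c have none in any row.

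The profile of a gene over the 6 arrays was compared with all other single-gene rows by the root-mean-square difference of the centred values. Within the receptor genes, Gria4 and Grin2b were most alike (0.0495), followed by Gria1 and Grin2b (0.0613), and Gria2 and Grin3a were least alike (0.392). An AMPA and an NMDA gene were therefore closer to each other than any pair within 1 receptor. The distance includes the genotype difference, which was similar for Gria4 (-0.35) and Grin2b (-0.41) and unlike for Gria2 (-0.10) and Grin3a (-0.74). It is therefore no separate measure of likeness between receptors. The rows nearest to Gria1 were Gas7 (0.03), Arap2 (0.0313) and the sodium/calcium exchanger gene Slc8a1 (0.0397). Those nearest to Gria4 were Lrp1b (0.0368), the cation channel gene Trpc4 (0.0382) and Slc9a9 (0.0384). Nearest to Grin2a were the receptor phosphatase gene Ptprd (0.0194), the calcium channel gene Cacna1d (0.0217) and Dock3 (0.0275). Nearest to Grin2b were Smyd3 (0.0338), Gria4 itself and the sodium channel gene Scn1a (0.0516).

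The rows nearest to Grin2d were Rasgrp2 (0.0254), Far2 (0.0269) and the potassium channel gene Kcnd2 (0.0355). Those nearest to Grin3a were Atp1b1, a subunit of the sodium pump (0.0491), the AMPA receptor partner Cacng3 (0.0613) and the exchanger gene Slc24a3 (0.0617). These distances describe 6 arrays that share the genotype split, and carry no test.

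Genes that serve the same receptors were read from 5 lists. Of 67 distinct partner genes measured, Grin3b among them, 12 fell and 1 rose (limma adjusted p under 0.05), with a median difference of -0.18. Over all 23410 rows tested, 4.13% were called lower and 2.34% higher. Without Tdp2Δ1-3 replicate 2 limma called 0 lower. At an unadjusted p under 0.05 that fit had 29 lower and 3 higher, against 9.67% and 6.22% of all rows. Without wild-type replicate 2 limma called 3 lower. The lower count was 6 without Tdp2Δ1-3 replicate 3 or wild-type replicate 1, and 25 without Tdp2Δ1-3 replicate 1. Over all rows the share called lower ran from 0.483% without Tdp2Δ1-3 replicate 2 to 7.0% without Tdp2Δ1-3 replicate 1. The higher count was 0 without Tdp2Δ1-3 replicate 2 or 3 or wild-type replicate 1 or 2, and 2 without Tdp2Δ1-3 replicate 1.

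Of 22 AMPA auxiliary and trafficking genes, 5 fell and none rose, with a median of -0.20 (12 were lower and 0 higher at an unadjusted p under 0.05). Cacng3, which encodes a transmembrane AMPA receptor regulatory protein, had values of -0.27, -0.60 and -0.66 in Tdp2Δ1-3 brains, against 0.27, 0.28 and 0.38 in wild-type brains. The pattern resembled that of Grin3a, with Tdp2Δ1-3 replicate 1 the least low. Cacng3 fell by 0.82 ± 0.10 (SE; limma adjusted p = 0.00704). The cornichon gene Cnih3, whose product escorts AMPA receptors from the endoplasmic reticulum, fell by 0.36, Cacng5 of the same family as Cacng3 by 0.36, Shisa9, an auxiliary subunit gene, by 0.40 and the assembly factor gene Frrs1l by 0.21. Shisa9 and Frrs1l were close to the threshold (limma adjusted p = 0.0489 and 0.0496). Cacng2, which encodes stargazin, had a difference of -0.55 that did not pass (limma adjusted p = 0.0558), and its second row had -0.31 (adjusted p = 0.120). Without Tdp2Δ1-3 replicate 2 the count of lower genes in this list was 0 in limma, against 0.483% of all rows. At an unadjusted p under 0.05 that fit had 11 lower and 0 higher, against 9.67% and 6.22% of all rows. The count was 12 without Tdp2Δ1-3 replicate 1 (7.0% of all rows lower). With any other array left out it was 1 to 3 (0.927% to 3.15% of all rows lower).

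Of 18 genes of NMDA co-agonist supply and trafficking, 3 fell and none rose, with a median of -0.10 (8 were lower and 1 higher at an unadjusted p under 0.05). Slc6a9, the glycine transporter gene that sets glycine at NMDA receptors, had values of -0.07, -0.48 and -0.67 in Tdp2Δ1-3 brains, against 0.39, 0.24 and 0.07 in wild-type brains. It fell by 0.64 ± 0.15 (SE; limma adjusted p = 0.0446), with both groups widely spread. The neutral amino acid transporter gene Slc1a4, which carries serine, fell by 0.32, and Apba1, an adaptor gene of receptor transport, by 0.55. Srr, which encodes the enzyme that makes D-serine, had a difference of -0.01 (limma adjusted p = 0.949). For the scaffold gene Tanc2 the row used here had a difference of -0.21 that did not pass (limma adjusted p = 0.120), while a second row of the same gene had -0.24 and passed (adjusted p = 0.0394). Without Tdp2Δ1-3 replicate 2 or wild-type replicate 2 the count of lower genes in this list was 0 in limma, against 0.483% and 0.927% of all rows. At an unadjusted p under 0.05 each of these fits had 6 lower and 0 higher. The shares of all rows were then 9.67% and 6.22% without Tdp2Δ1-3 replicate 2, and 9.18% and 7.54% without wild-type replicate 2. The count was 6 without Tdp2Δ1-3 replicate 1 (7.0% of all rows lower). With any other array left out it was 1 or 2 (1.70% to 3.15% of all rows lower).

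Among 5 measured genes of delta receptors and cerebellins, the synaptic organisers that bind them, Cbln4 and Grid1 both fell by 0.37, and the list median was -0.27. The other genes of the list did not pass, and 4.13% of all rows were called lower. None of the 5 passed in limma without Tdp2Δ1-3 replicate 2 or wild-type replicate 2 (0.483% and 0.927% of all rows lower). At an unadjusted p under 0.05 each of these fits had 3 lower and 0 higher. The shares of all rows were then 9.67% and 6.22% without Tdp2Δ1-3 replicate 2, and 9.18% and 7.54% without wild-type replicate 2. Without Tdp2Δ1-3 replicate 1, 4 fell, against 7.0% of all rows. Of 11 genes of glutamate supply and clearance, 1 fell, the neuronal glutamate transporter gene Slc1a1, against 4.13% of all rows. The list median was -0.19. Slc1a1 had values of -0.19, -0.26 and -0.43 in Tdp2Δ1-3 brains, against 0.22, 0.19 and 0.21 in wild-type brains, and fell by 0.50 ± 0.06 (SE; limma adjusted p = 0.00818). In this list 0 passed in limma without Tdp2Δ1-3 replicate 2. At an unadjusted p under 0.05 that fit had 5 lower and 0 higher, against 9.67% and 6.22% of all rows. Without Tdp2Δ1-3 replicate 1 or wild-type replicate 3, 2 were lower, against 7.0% and 3.15% of all rows. The vesicular transporter gene Slc17a7 had a difference of -0.22 that did not pass (limma adjusted p = 0.0779).

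Of 11 genes that act on receptor transcripts, 1 fell and 1 rose, against 4.13% lower and 2.34% higher over all rows, and the median was 0.0056. Mef2c, a transcription factor gene of neurons, had values of -0.52, -0.40 and -0.20 in Tdp2Δ1-3 brains, against 0.26, 0.24 and 0.20 in wild-type brains. It fell by 0.60 ± 0.08 (SE; limma adjusted p = 0.00853). Rcor2, a corepressor gene whose product can act with REST, had values of 0.27, 0.10 and 0.12 in Tdp2Δ1-3 brains, against -0.25, -0.15 and -0.10 in wild-type brains, and rose by 0.33 ± 0.06 (SE; limma adjusted p = 0.0252). In this list the lower count in limma was 0 without Tdp2Δ1-3 replicate 2 and 2 without wild-type replicate 3, against 0.483% and 3.15% of all rows. At an unadjusted p under 0.05 the fit without Tdp2Δ1-3 replicate 2 had 4 lower and 3 higher, against 9.67% and 6.22% of all rows. Rest itself had a difference of 0.20 (limma adjusted p = 0.0667) and Nrf1 of 0.22 (0.0502), and neither passed. Adarb1, which encodes the enzyme that edits the Gria2 transcript, had a difference of -0.23 that did not pass (limma adjusted p = 0.0765).

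Markers of several cell types moved in the same arrays, and their part in the receptor differences was not tested, beyond setting each subunit gene against the pan-neuronal markers as described last. The counts below stand against 4.13% called lower and 2.34% called higher over all rows. Of 19 pan-neuronal markers 7 fell and none rose, among them Thy1 by 0.91 and Syt1 by 0.38. The list median was -0.23, and 18 of the 19 differences were negative. Tubb3, Dcx and Map2 of this list had differences of -0.03, -0.03 and -0.04, and Elavl4 had 0.15. None of these passed (limma adjusted p = 0.860, 0.753, 0.662 and 0.199). The mean of that list lay between -0.33 and -0.04 on the Tdp2Δ1-3 arrays and between 0.05 and 0.15 on the wild-type arrays. All 15 measured markers of cycling cells rose in the rows used, Ccna2 by 0.59 and Kif11 by 0.74, with list means of 0.18 to 0.33 on Tdp2Δ1-3 arrays and -0.40 to -0.18 on wild-type arrays. A second row of Top2a, one of the 15, had a difference of 0.04 that did not pass (limma adjusted p = 0.687), against 0.72 in the row used. Of 11 astrocyte markers, of cells that also carry glutamate receptors, 5 fell, among them Slc4a4 by 0.80 and Aqp4 by 0.51. The astrocyte list means were -0.28 to -0.05 on Tdp2Δ1-3 arrays and 0.06 to 0.26 on wild-type arrays, and 9 of the 11 differences were negative. Gfap and Slc1a2 of this list had differences of 0.07 and 0.03, and S100b had -0.06. None of the latter passed (limma adjusted p = 0.673, 0.786 and 0.678). Of 7 oligodendrocyte precursor markers, Pdgfra and Olig1 fell by 0.58 and 0.72, with list means of -0.35 to -0.03 on Tdp2Δ1-3 arrays and 0.03 to 0.22 on wild-type arrays. Without Tdp2Δ1-3 replicate 2, limma called 2 cycling markers higher, while all 15 were higher at an unadjusted p under 0.05. In that fit 0 pan-neuronal, astrocyte or oligodendrocyte precursor markers were called lower (10, 7 and 2 at an unadjusted p under 0.05). Of all rows it called 0.483% lower and 0.137% higher. At an unadjusted p under 0.05 these shares were 9.67% and 6.22%. With 1 array left out the lower counts ran from 0 to 12 for pan-neuronal, 0 to 6 for astrocyte and 0 to 4 for oligodendrocyte precursor markers. The higher count ran from 2 to 15 for cycling markers. Of all rows, 0.483% to 7.0% were then called lower and 0.137% to 3.68% higher.

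Of 13 radial glia markers, 4 rose and 1 fell, against 2.34% higher and 4.13% lower over all rows. Prom1 was higher by 0.42 and Tnc lower by 0.44. List means lay between -0.02 and 0.08 on Tdp2Δ1-3 arrays and between -0.14 and -0.02 on wild-type arrays. With 1 array left out, 1 to 3 radial glia markers were higher (1 without Tdp2Δ1-3 replicate 2 or wild-type replicate 2), and Tnc did not pass without either of these arrays. The share of all rows called higher then ran from 0.137% to 3.68%. Of 8 endothelial markers 1 fell, Cldn5 by 0.35, against 4.13% lower over all rows. Flt1 had -0.13 (limma adjusted p = 0.203). The endothelial list means were -0.06 to -0.02 on Tdp2Δ1-3 arrays and -0.0027 to 0.06 on wild-type arrays. Cldn5 passed without Tdp2Δ1-3 replicate 1 or wild-type replicate 3 and in none of the other 4 fits that left out 1 array. None of 8 microglia markers passed in limma (0 lower and 1 higher at an unadjusted p under 0.05), with Trem2 at 0.24 and C1qa at -0.09, and list means of -0.03 to 0.02 on Tdp2Δ1-3 arrays and -0.04 to 0.02 on wild-type arrays. Hbb-y and Hba-x rose by 3.79 and 1.44 among 7 red cell markers, with list means of 0.34 to 0.39 on Tdp2Δ1-3 arrays and -0.44 to -0.37 on wild-type arrays. The list median difference was 0.10, since the other 5 did not pass and ran from -0.13 for Car2 to 0.14 for Hbb-bh1.

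**Figure D4:**
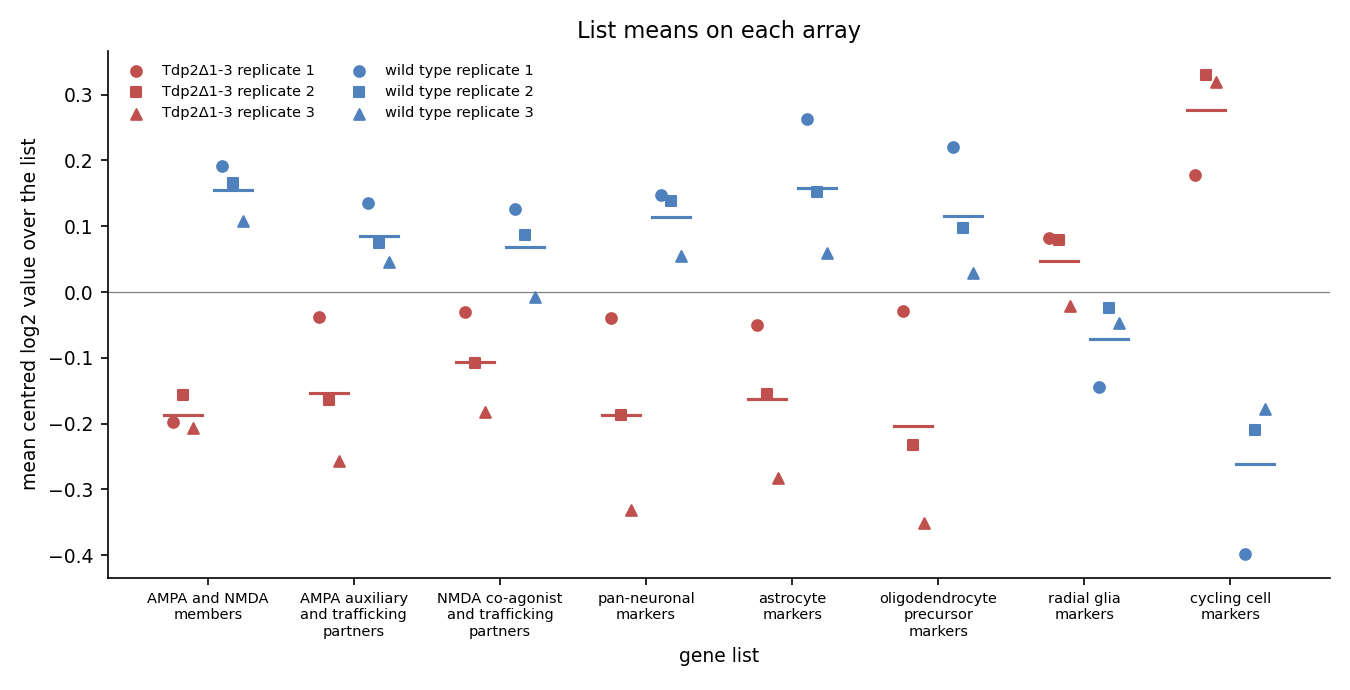
Mean centred log2 value over each gene list (vertical axis) on each array, Tdp2Δ1-3 in red at the left and wild type in blue at the right of each list, with a bar for the mean of 3. The receptor genes lie between -0.21 and -0.16 on the Tdp2Δ1-3 arrays, a narrower band than the pan-neuronal markers at -0.33 to -0.04.

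The 3 Tdp2Δ1-3 arrays were close together in the mean of the 9 receptor genes (-0.20, -0.16 and -0.21 for replicates 1, 2 and 3), whereas the pan-neuronal mean was -0.04, -0.19 and -0.33 on the same arrays. On the wild-type arrays the receptor mean was 0.19, 0.17 and 0.11 and the pan-neuronal mean 0.15, 0.14 and 0.05. Each receptor gene was therefore also taken relative to the pan-neuronal mean of the same array, a comparison added after the data were seen. That mean joins markers that fell with others, such as Tubb3, Dcx and Map2, that did not pass. Grin3a then had -0.21, -0.35 and -0.34 in Tdp2Δ1-3 brains, against 0.11, 0.11 and 0.20 in wild-type brains. Grin2d had -0.14, -0.13 and -0.25 in Tdp2Δ1-3 brains, against 0.28, 0.09 and 0.13 in wild-type brains. In these 2 genes the groups stayed apart, with differences of -0.44 ± 0.05 and -0.34 ± 0.07 (SE, n = 3 per genotype).

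The exact permutation p was 0.1 for both Grin3a and Grin2d, the smallest that 3 against 3 arrays can give, and 0.45 adjusted over the 9 genes. In the other 7 genes the groups overlapped on this scale. Gria1, Gria4 and Grin2b had relative differences of -0.09 ± 0.11, -0.05 ± 0.10 and -0.11 ± 0.13 (SE), and Grin2a had 0.04 ± 0.12. Gria2, Gria3 and Grin2c had 0.20, 0.18 and 0.21 (exact permutation p = 0.3 each, adjusted 0.54). For Gria1 the relative value was -0.20 on Tdp2Δ1-3 replicate 1 and 0.18 on Tdp2Δ1-3 replicate 3, the arrays on which the pan-neuronal mean was -0.04 and -0.33.

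**Figure D5:**
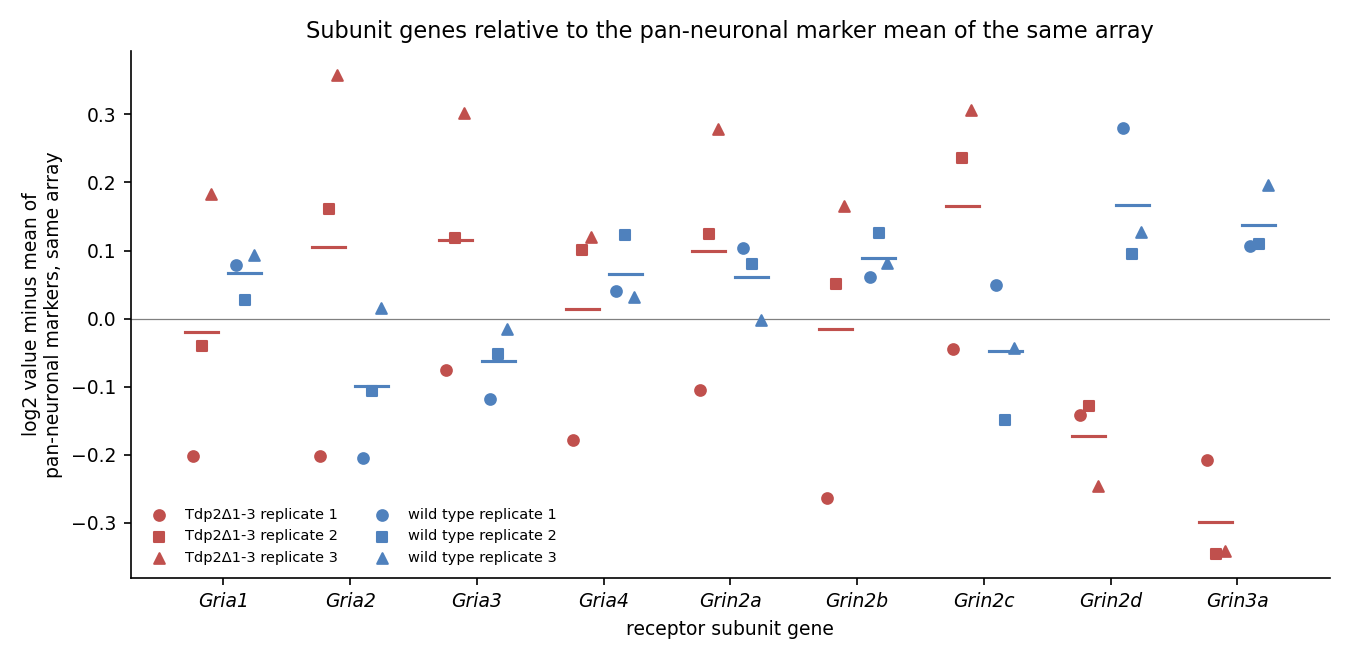
Log2 value of each subunit gene minus the mean of 19 pan-neuronal markers on the same array (vertical axis), Tdp2Δ1-3 in red at the left and wild type in blue at the right of each gene, with a bar for the mean of 3. Grin2d and Grin3a are the genes whose groups do not overlap, and the Tdp2Δ1-3 arrays of Gria2 run from -0.20 to 0.36.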

How the data were processed

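The values analysed were the deposited log2 values of 6 Affymetrix Mouse Gene 1.0 ST arrays, normalised by the authors with Robust Multi-Array Average, per the series text. Affymetrix Expression Console is the tool in the submitters' processing notes, and no source used here names the genome build. The file states no log base, and log2 is the scale that this method gives. Each row had been centred, its median across arrays lying within 5e-07 of 0, a step that the labels do not describe. Gene names came from the platform annotation. Among 28856 rows, 23410 named at least 1 gene and were tested, and 21789 named 1 gene only. Current symbols were looked up by identifier in a RefSeq table (GRCm38.p6; 21698 of the single-gene rows found), and a list gene with several rows was represented by the row with most accessions.

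Genotype, taken from the sample titles, was the only term in limma 3.58.1 (R 4.3.3; lmFit and eBayes, two-sided), with Benjamini-Hochberg adjustment over all 23410 rows. Pairs of members and values relative to markers were compared with exact permutation tests over arrays (scipy 1.17.1). The genes named were the members, the called genes of each pathway list (the 2 of smallest p where fewer than 2 were called), the 2 of smallest p of each marker list, Tdp2, and the 3 rows nearest to each called member; any other gene named was chosen after its values were seen. Members and lists were chosen with earlier results of these data known. Of 162 list genes, 153 had a row and the other 9 were not analysed here. In simulated data for the mutant against the wild type (10 rounds, 23410 rows, 200 changed), the fit called 39.4% of rows changed 1.2-fold, 87.8% at 1.3-fold and 99.2% at 1.5-fold, and 5.72% of its calls were false. Noise was independent between simulated rows. Alternatives were the replicate block, each array left out, all rows, equal array medians, cyclic loess, array weights, a robust prior, an unadjusted p, a test against 1.2-fold and, added after the data were seen, values relative to pan-neuronal markers. Figures were drawn with matplotlib 3.10.9.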

Additional observations from a re-analysis of the deposited data

How the results depend on the processing

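With 1 array left out, the count of lower subunit genes ran between 0 and 6 and that at 1.5-fold between 0 and 2. Lower partner genes ran between 0 and 25 and higher ones between 0 and 2. The differences ran between -0.41 and -0.36 for Gria1, -0.40 and -0.31 for Gria4, -0.32 and -0.22 for Grin2a, -0.44 and -0.35 for Grin2b, -0.73 and -0.53 for Grin2d, and -0.85 and -0.64 for Grin3a. The cause of the changed calls was not tested, beyond the fewer arrays in each such fit.

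With the replicate number as a block, 6 subunit genes were lower and no call of a subunit gene changed, while 20 partner genes were lower and 2 higher, 11 pan-neuronal markers were lower, and 6.39% of all rows were lower and 3.86% higher. The series text speaks of independent pairs of brains but ties no replicate number to a pair. For want of that tie, the main fit left the block out. Same-numbered arrays correlated in their deviations from the genotype means by 0.209, 0.0472 and 0.198. Arrays of different numbers correlated by -0.224 to 0.0575, the highest being Tdp2Δ1-3 replicate 2 with wild-type replicate 3. These values do not settle whether equal numbers mark pairs. With array weights 34 partners were lower and 4 higher (over all rows 11.9% and 11.3%), 7 subunit genes were lower, Gria3 passed at -0.14 and Grin2c reversed to 0.0018. With all 28856 rows Grin2a lost its call at -0.26. With cyclic loess 1 subunit gene reached 1.5-fold, Grin2d. Against a 1.2-fold limit in limma 0 subunit genes passed (4 lower at an unadjusted p under 0.05). Over all 23410 rows that test called 14 lower and 3 higher, and 1.73% were lower at an unadjusted p under 0.05. Relative to the pan-neuronal mean, the differences were -0.086 for Gria1, 0.20 for Gria2, 0.18 for Gria3, -0.051 for Gria4, 0.039 for Grin2a (reversed), -0.11 for Grin2b, 0.21 for Grin2c, -0.34 for Grin2d and -0.44 for Grin3a. The causes of these shifts were not tested. Equal array medians and a robust prior changed no call of a subunit gene. A filter on low values was not run, because centring removed the levels.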
